A study of Sus scrofa with 11 samples.

Results

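MicroRNA genes were read in pig heart muscle on a whole-transcript array. The members are the probe sets whose platform annotation gives a single gene symbol starting with MIR and a digit, or with MIRLET. This rule used no measured value and found 175 probe sets for 161 symbols, of 27558 probe sets in all and 13157 with 1 symbol. For 14 of the symbols 2 probe sets were listed, and those 28 probe sets shared all their values pair by pair. All 175 matched a RefSeq gene of biotype miRNA (assembly Sscrofa11.1) by gene ID.

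All animals were male Yorkshire swine with an ameroid constrictor, a ring that slowly closes the vessel, on the left circumflex coronary artery. Normal chow (labelled ND) or high fat feed (labelled HFD) was given for 12 weeks. The ischemic muscle received an injection, either of vehicle or of extracellular vesicles (EV), particles that cells release. Tissue from the ischemic zone of the left ventricle was taken 5 weeks after the injection. The 4 groups were ND with vehicle (3 arrays), ND+EV (3), HFD with vehicle (2) and HFD+EV (3). The source of the EV is not given in the sources used here. The titles call the arrays of a group biological replicates, and no label ties an array to a named animal, so a p-value measures the spread between these arrays. The study asks how diet bears on what EV do in ischemic heart muscle.

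A microRNA gene is copied into a long primary transcript, from which the nuclear enzyme Drosha cuts a hairpin called the precursor. Exportin-5 carries the hairpin to the cytoplasm, Dicer trims it to the short mature microRNA, and an Argonaute protein uses it to hold down matching messenger RNAs. Many microRNA genes lie within introns of protein-coding host genes and can share their transcript. In heart muscle miR-1, miR-133, miR-208 and miR-499 are the classical muscle microRNAs. The labelling used here is built for long RNA, so signal is read as primary transcript or precursor, and the mature microRNA was not measured.

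Values are log2 signal, and a difference of 1 is a fold of 2. Array medians lay between 4.36 and 4.48. Heart muscle identity was checked with 10 muscle cell markers, of which 7 were measured and all 7 were above the median on all 11 arrays. Several of the 7, such as ACTC1 and RYR2, are also active in the atrium, and 4 of 6 atrial markers were above the median on all arrays too. ND replicates 1 and 3 stood apart: their mean correlations with the other arrays were 0.946 and 0.952, against 0.965 to 0.972 for the other 9, and their spread of signal was smallest (SD 1.45 and 1.47, against 1.62 at the highest). Some of the results that rest on ND are therefore also given without these 2 arrays. That leaves ND replicate 2 as the only ND array, so such values show a size without a spread within ND. Signal is not an RNA amount, since each probe set binds with its own strength, and the order of members by signal says nothing firm about their order by abundance.

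Most microRNA probe sets gave low signal. Their means over the 11 arrays ran from 2.49 to 9.37 with a median of 3.37, against a median of 4.42 for all probe sets. On all 11 arrays 24 members (13.7%) lay above the array median, against 40.1% of all probe sets. On all 11 arrays 123 members (70.3%) lay below it, against 38.9% of all. The other 28 members crossed the median between arrays. A mean under 3 was seen in 57 members (32.6%) and in 5.28% of all probe sets, and a mean over 6 in 12 members. On 3 or more arrays 43 members (24.6%) held the same value to 5 decimals, as did 25.3% of all probe sets.

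**Figure D1:**
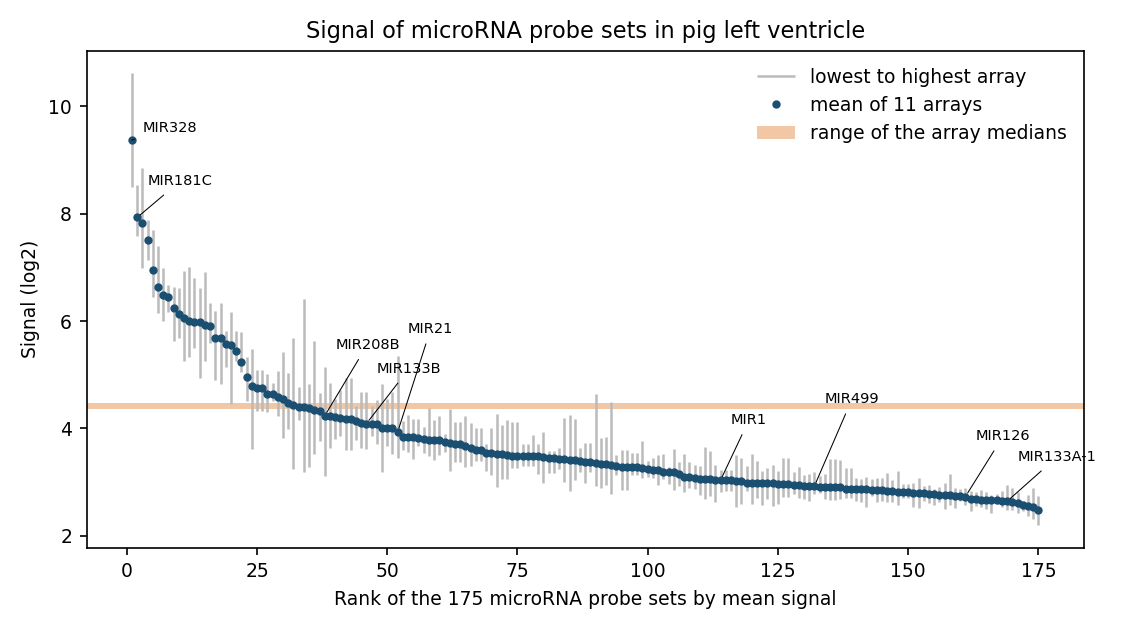
Mean log2 signal of the 175 microRNA probe sets (points) in rank order, with a line from the lowest to the highest array; the shaded band is the range of the 11 array medians, 4.36 to 4.48. Few members stand above the band, and the muscle genes MIR1, MIR499 and MIR133A-1 lie in the low tail.

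The share of members above the median of their own array lay between 16% and 22.3% on all 11 arrays. In ND it was 20.6%, 21.7% and 22.3% on the 3 arrays (mean 21.5% ± 0.873, SD). In ND+EV it was 21.1%, 18.9% and 18.9% (19.6% ± 1.32). In HFD it was 19.4% and 16% (17.7% ± 2.42, n = 2), and in HFD+EV 18.9%, 20.6% and 18.9% (19.4% ± 0.990). Every ND array had a larger share than both HFD arrays, the lowest ND array equalled the highest of HFD+EV, and the other pairs of groups overlapped. The shares got no test.

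**Figure D2:**
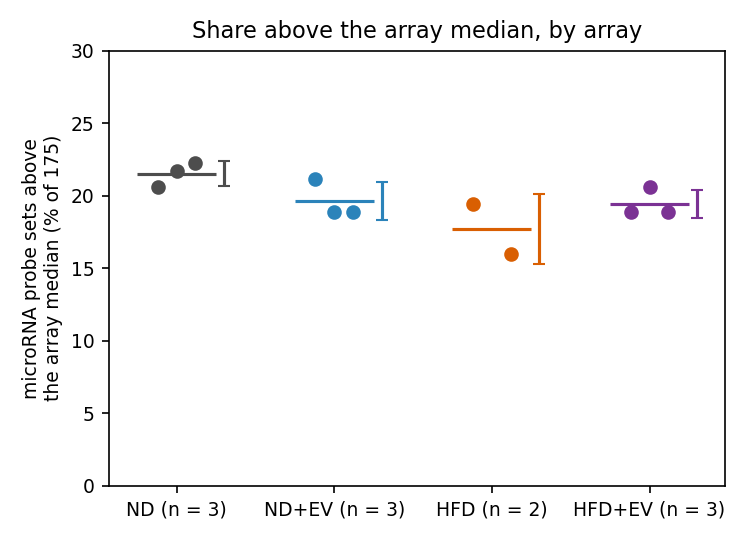
Percent of the 175 microRNA probe sets above the median of their array (points, 1 per array; line, group mean; bar, SD). All 11 arrays lie between 16% and 22.3%.

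The brightest member was MIR328, with a mean of 9.37. It was followed by MIR181C (7.93), MIRLET7A-2 (7.83), MIR324 (7.52), MIRLET7E (6.94) and MIR107 (6.64). MIR149 (6.48), MIR210 (6.45), MIR148B (6.25) and MIR135-2 (6.13) completed the top 10. Just above the median of all probe sets were MIR628 (4.55), MIR542 (4.48) and MIR29C (4.45). Just below it were MIR187 (4.41), MIR98 (4.40) and MIR296 (4.39).

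Bright members were found inside and outside other genes. Of the 161 symbols, 80 lay inside the span of a protein-coding gene in Sscrofa11.1, 13 inside a long non-coding RNA only and 68 in neither; strand is not in the table used. A mean above the median was found for 18 of the 80 (22.5%), 1 of the 13 (7.69%) and 12 of the 68 (17.6%). Annotated hairpins were 65 to 110 bases long with a median of 80, and length had a Pearson correlation with mean signal of -0.0095 over the 161 symbols.

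The muscle microRNAs were dim beside the array as a whole. MIR1, MIR133A-1, MIR133B, MIR206, MIR208B, MIR499 and MIR486-1 had means of 3.04, 2.64, 4.09, 3.18, 4.24, 2.93 and 4.17. None of the 7 means reached the median of all probe sets. Those of MIR133B, MIR208B and MIR486-1 were above the members' own median of 3.37. MIR1 was read at 3.06, 3.21 and 3.22 in ND, 2.97, 2.92 and 3.15 in ND+EV, 3.12 and 2.97 in HFD, and 3.08, 2.91 and 2.82 in HFD+EV. These levels overlapped across the groups. MYH7, the slow myosin heavy chain that hosts MIR208B, had a mean of 12.42, and MYH7B, which hosts MIR499, 7.10.

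Markers of the other cells of the heart were spread across the range. The vessel wall gene MIR143, known from smooth muscle, had a mean of 5.91 and was above the median on all arrays, and its cluster neighbour MIR145 had 3.37. The endothelial MIR126 had a mean of 2.73, and EGFL7, the endothelial gene that hosts MIR126, had 7.54. MIR221 and MIR222, also known from endothelium, had 3.20 and 3.40. The blood cell gene MIR142 had 4.32, while MIR155, MIR146A, MIR146B and the red cell gene MIR451 had 2.64, 2.80, 3.19 and 2.93. In whole tissue, fewer cells of a type and less RNA per cell cannot be told apart.

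MIR21, a gene known from fibroblasts and injured tissue, had 1 array that stood out. It was read at 3.87, 3.44 and 3.65 in ND, 4.09, 3.74 and 3.70 in ND+EV, 3.46 and 4.34 in HFD, and 3.72, 3.90 and 5.35 in HFD+EV. Only HFD+EV replicate 3 passed its array median, and all 4 groups overlapped. MIR210, the microRNA known to be induced by low oxygen, lay between 6.16 and 6.67 on all arrays.

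Group differences were tested with limma for the probe sets above the lowest 25% of mean signal (3.63). This left 66 members (37.7%) for 63 symbols, against 75% of all probe sets, and 109 members were not tested. The 66 passed through a filter on the mean of all arrays, so they are the brighter members and not the whole set. P-values were adjusted by Benjamini-Hochberg over the 20668 probe sets tested, with a threshold of 0.05.

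The diet comparison without EV, HFD against ND, held the only member past the threshold. MIR181A-2 was lower in HFD, and 17 of the 66 members had a higher and 49 a lower mean in HFD. The members' median log2 difference was -0.155, against -0.022 over all probe sets tested. Without ND replicates 1 and 3 it was -0.183, with 21 members higher and 45 lower. Under quantile scaling 21 members were higher and 45 lower, and under loess 22 and 44. The adjusted threshold was passed by 1 member, against 0.735% of all probe sets tested (152). An unadjusted p under 0.05 was found for 15 members (22.7%), 2 higher and 13 lower, near the 24% of all probe sets. Groups did not overlap for 1 member that was higher, where the background was 19.4%, and for 19 that were lower, where it was 19.7%; the 19 are 28.8% of the 66.

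MIR181A-2 belongs to a family known from blood cell and vessel biology. Its signal was 5.89, 6.18 and 5.62 in ND, 4.46 and 4.93 in HFD, 5.68, 5.36 and 5.64 in ND+EV, and 6.08, 5.59 and 5.61 in HFD+EV. The 2 HFD arrays lay below all 9 others. HFD was lower than ND by a log2 difference of -1.20 (SE 0.22, limma adjusted p = 0.0471). In this comparison 118 probe sets shared that adjusted p, the smallest of all, and 86 had a smaller unadjusted p.

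The call for MIR181A-2 stood near the threshold. Under 21 other settings its log2 difference ran from -1.48 to -0.97 and the adjusted p from 0.0280 to 0.274, and it passed in 5. Without ND replicate 2 or HFD+EV replicate 1 it passed (adjusted p 0.0329 and 0.0284). Without ND replicate 1 or 3 the adjusted p was 0.111 and 0.0553, and without HFD replicate 1 or 2 it was 0.147 and 0.263. Leaving out an array of the groups outside the comparison also ended the call, with 0.0821, 0.0677 and 0.0757 without ND+EV replicates 1, 2 and 3, and 0.0735 and 0.0612 without HFD+EV replicates 2 and 3. Without both ND replicates 1 and 3, which leaves only replicate 2 in ND, the log2 difference was -1.48.

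The neighbours of MIR181A-2 had other values. MIR181B-2, within 10000 bases of it, was read at 3.89, 4.41 and 3.85 in ND and 4.22 and 3.95 in HFD, a log2 difference of 0.04. NR6A1, a nuclear receptor gene whose span holds both, had a difference of -0.33 (adjusted p = 0.16). From the separate cluster of the family, MIR181C had -0.38 (adjusted p = 0.274) and MIR181D -0.74 (adjusted p = 0.113).

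**Figure D3:**
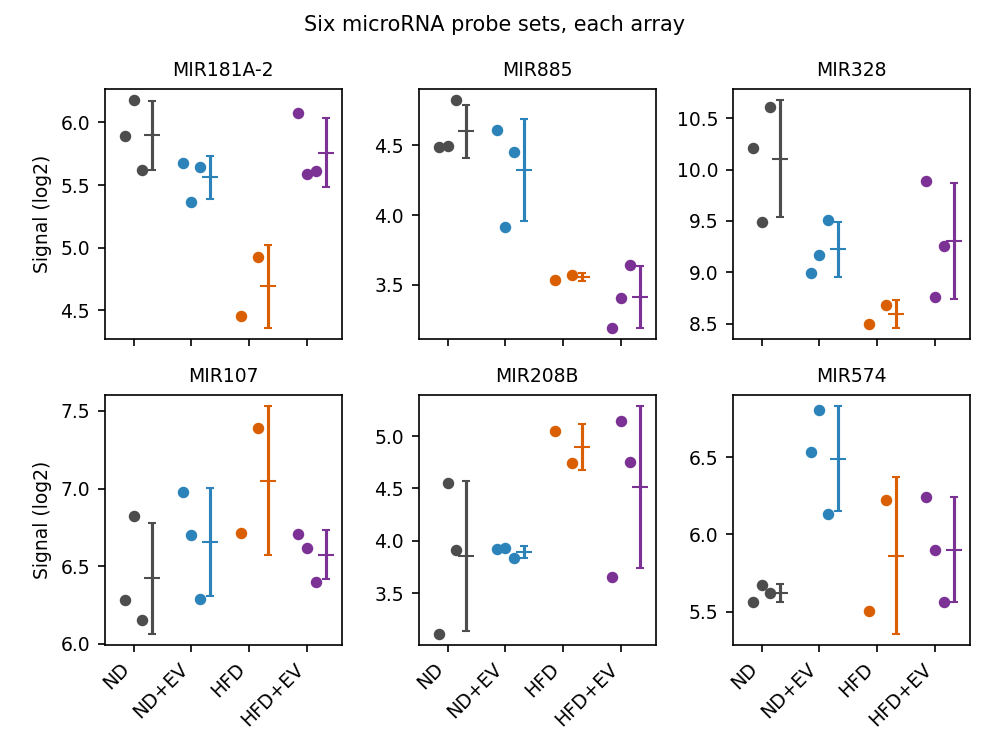
Log2 signal of MIR181A-2, MIR885, MIR328, MIR107, MIR208B and MIR574 on each array (points; tick, group mean; bar, SD), each panel with its own axis. The 2 HFD arrays of MIR181A-2 lie below the other 9, and MIR885 lies at or below 3.64 on all 5 HFD and HFD+EV arrays.

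MIR885 came next by p-value and did not pass. It was read at 4.49, 4.49 and 4.82 in ND, 4.61, 3.91 and 4.45 in ND+EV, 3.53 and 3.57 in HFD, and 3.19, 3.41 and 3.64 in HFD+EV. All 5 arrays of the high fat diet lay below all 6 of the normal diet. Those 5 readings were near or below 3.63, the cut on mean signal for testing. MIR885 entered the test through its normal diet arrays. At such low signal, lower means in HFD than in ND were common over all probe sets, as given below. From a mean of 3.63 to 4.42, where MIR885 lies, the median difference over all probe sets was -0.125. The part of signal level in the MIR885 difference was not tested. The log2 difference was -1.05 (SE 0.21, limma adjusted p = 0.0557) without EV and -0.91 (SE 0.19, adjusted p = 0.413) with EV. Without ND replicates 1 and 3 MIR885 had -0.94 in HFD against ND. Its host ATP2B2, a calcium pump of the cell membrane, had -0.47 (adjusted p = 0.11) and -0.08. In HFD against ND MIR885 passed without ND replicate 2 (adjusted p = 0.0348) and without HFD+EV replicate 1 (adjusted p = 0.0375).

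MIR328, known for targeting a cardiac calcium channel, had the widest gap of the tested members between HFD and ND. It was read at 10.21, 9.49 and 10.61 in ND, 8.99, 9.17 and 9.51 in ND+EV, 8.49 and 8.69 in HFD, and 9.89, 8.76 and 9.25 in HFD+EV. HFD lay below every other array, and ND overlapped ND+EV and HFD+EV. The log2 difference of HFD from ND was -1.51 (SE 0.35, adjusted p = 0.0632), and -0.90 without ND replicates 1 and 3. It too passed without ND replicate 2 (-1.82, adjusted p = 0.0244) and without HFD+EV replicate 1 (adjusted p = 0.0382). ELMO3, in whose span it lies, had -0.17.

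The let-7 family, known for restraining growth genes and for being held back by LIN28, had a median of member means of 5.19, against 3.37 for all members. Of its 8 members measured, 6 were tested and 5 were above the median on all 11 arrays. All 6 had a lower mean in HFD than in ND, with a median log2 difference of -0.77, 3 had an unadjusted p under 0.05 (background 24%) and none passed. The 6 stayed lower under quantile and loess scaling and without ND replicates 1 and 3, where their median was -0.51. With EV, in HFD+EV against ND+EV, 1 of the 6 had a higher and 5 a lower mean, with a median of only -0.106. There 0 had an unadjusted p under 0.05 (background 7.36%), and the groups overlapped for every one. LIN28A was not tested, with a mean of 3.45.

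MIRLET7A-2 was read at 8.85, 8.23 and 7.73 in ND, 8.25, 7.61 and 8.20 in ND+EV, 7.18 and 6.98 in HFD, and 7.84, 7.66 and 7.66 in HFD+EV. HFD lay below all other arrays, with a log2 difference from ND of -1.19 (SE 0.29, limma adjusted p = 0.0660), and -1.15 without ND replicates 1 and 3. MIRLET7E was 7.70, 7.11 and 7.19 in ND and 6.45 and 6.51 in HFD, which did not overlap (log2 difference -0.85, SE 0.23, adjusted p = 0.0778). MIRLET7I was 6.93, 5.97 and 5.93 in ND and 5.25 and 5.91 in HFD (-0.70, adjusted p = 0.186). In MIRLET7I the higher HFD array was just under the lowest ND array.

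The other 3 tested members of the family differed less or varied more. MIRLET7G had a log2 difference of -0.18 and MIRLET7A-1 of -0.15. MIR98 had -1.27, but it had the widest spread of any member within groups (pooled SD 1.04), with 4.21, 6.42 and 4.71 in ND and 4.21 and 3.48 in HFD. MIR125A, which lies in a cluster with MIRLET7E and MIR99B, had -0.56 (adjusted p = 0.0945), and MIR99B -0.11.

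**Figure D4:**
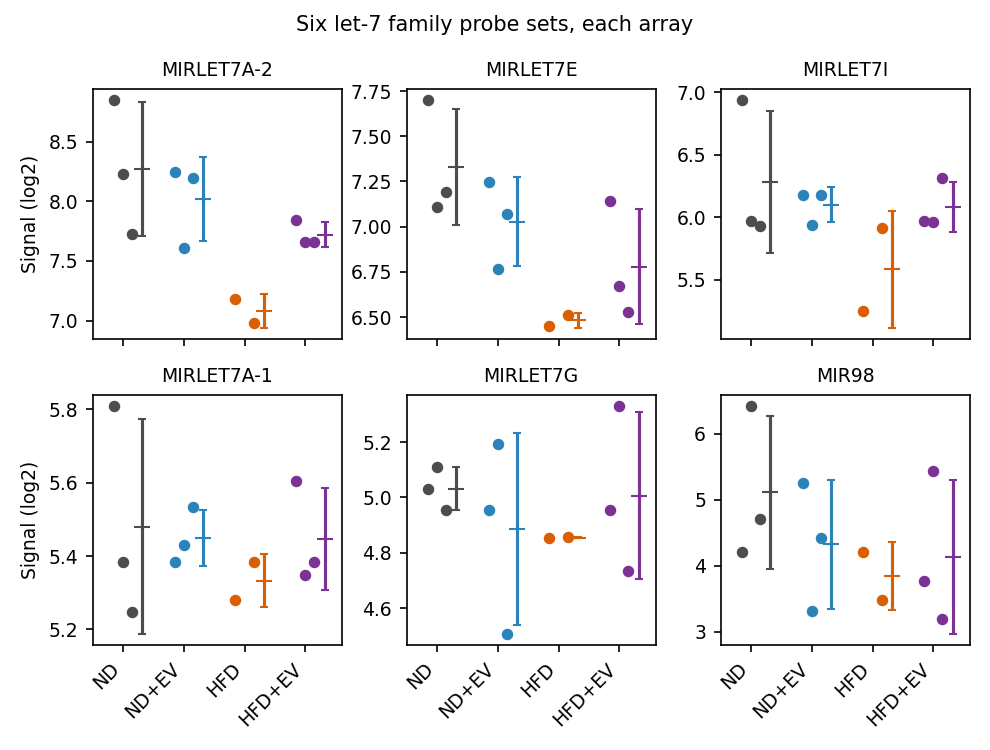
Log2 signal of the 6 tested let-7 family probe sets on each array (points; tick, group mean; bar, SD), each panel with its own axis. The group mean of HFD is below that of ND in every panel, and the groups overlap in MIRLET7A-1 and MIR98.

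Few members had a higher signal in HFD than in ND, and none of them passed. MIR208B was read at 3.11, 4.55 and 3.91 in ND, 5.05 and 4.74 in HFD, 3.92, 3.93 and 3.83 in ND+EV, and 3.65, 5.14 and 4.75 in HFD+EV. Its 2 HFD arrays lay above all 3 of ND, with a log2 difference of 1.04 (SE 0.44, adjusted p = 0.180), and 0.35 without ND replicates 1 and 3. Its host MYH7 had 0.41 (adjusted p = 0.13). MIR107, which lies in the pantothenate kinase gene PANK1, had 0.63 (adjusted p = 0.185) and 0.23 without those arrays. MIR628 had 0.60, which became 0.19 without them, and MIR105-1 had 0.55.

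Lower means in HFD were common at low signal on these arrays. Below a mean of 3.63, 85.3% of 109 members and 80.0% of all probe sets were lower in HFD than in ND. From 3.63 to 4.42 the shares were 73.5% of 34 members and 71.8% of all. From 4.42 to 5.61 they were 78.6% of 14 members and 55.5% of all, and above 5.61 they were 72.2% of 18 members and 30.2% of all. The members' share was thus near that of all probe sets at low signal, and above it among the 32 brighter members. These shares are those of the deposited values.

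Other values moved with the same comparison. The SD of signal over all probe sets was 1.45 to 1.51 in ND and 1.59 and 1.62 in HFD. The mean over the 6 of 7 fibroblast markers measured was 7.82 to 9.02 in ND and 8.96 to 9.72 in HFD, and that over 5 of 6 smooth muscle markers was 5.90 to 6.74 and 6.60 to 7.09. These ranges overlapped, as did those of the 7 ventricular muscle markers, 10.82 to 10.99 and 10.98 to 11.22. Each of the 6 fibroblast markers still had a higher mean in HFD, with a median log2 difference of 0.88. Among them 4 had an unadjusted p under 0.05 (background 24%) and by limma none passed. Of the 5 smooth muscle markers 4 were higher and 1 lower, and of the 7 ventricular markers 4 and 3, with 2 in each list under 0.05 unadjusted. The mean over the 6 atrial markers did not overlap, with 5.42 to 6.12 in ND and 6.32 to 7.08 in HFD. All 6 had a higher mean in HFD, MYL4 by only 0.0005. Of the 6, 4 had an unadjusted p under 0.05 (background 24%) and by limma none passed. NPPA (7.15 and 9.27) and SLN (3.77 and 6.73) were much higher on HFD replicate 2 than on HFD replicate 1. The means over 3 of 5 red cell markers (3.71 to 4.16 in ND, 3.54 and 3.55 in HFD) and 6 of 7 lymphocyte markers (4.15 to 4.33, and 4.08 and 4.11) did not overlap either and were lower in HFD. The red cell and lymphocyte markers had low signal, with means of 3.24 to 4.18 and 3.31 to 4.66. Below 4.42 most probe sets of the array were lower in HFD than in ND, as given above. The lowest mean signal among the fibroblast markers was 6.97, and above 5.61 only 30.2% of all probe sets were lower in HFD. The part of signal level in the marker differences was not tested, nor was the part of these values in the microRNA differences.

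With EV injected, the diet comparison gave no call. In HFD+EV against ND+EV, 20 of the 66 members had a higher and 46 a lower mean, with a median log2 difference of -0.140 against -0.007 over all probe sets tested. Under quantile and under loess scaling 25 members were higher and 41 lower. By limma 0 members passed, as did 0% of all probe sets tested, and 6 had an unadjusted p under 0.05, all lower (9.09%, background 7.36%). Groups did not overlap for 1 higher member (background 7.58%), MIR105-1, and for 7 lower probe sets (background 6.93%). Above a signal of 5.61, 16 of 18 members were lower (88.9%, against 37.4% of all probe sets), and from 4.42 to 5.61 it was 50.0% against 52.8%.

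Apart from MIR885, the smallest p-values were those of MIR296, MIR574 and MIR148B. MIR296 was 4.75, 4.77 and 4.67 in ND+EV and 4.55, 3.28 and 4.06 in HFD+EV, without overlap (-0.77, SE 0.28, limma adjusted p = 0.621). MIR574 had -0.59 (adjusted p = 0.636) and MIR148B -0.46 (adjusted p = 0.657), both with overlapping groups. MIR142, of blood cells, had -0.34 (adjusted p = 0.673) here and -0.48 (adjusted p = 0.130) without EV, and did not overlap in either comparison.

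The diet comparisons without and with EV share no array. Over the 63 tested symbols, 7 differences were positive in both and 35 negative in both, so 66.7% had the same sign, as did 66.7% of all probe sets tested. The Pearson correlation of the differences was 0.355 over the 63 symbols (Spearman 0.243) and 0.397 over all probe sets tested. It is a correlation across genes, which are not independent and share their arrays.

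**Figure D5:**
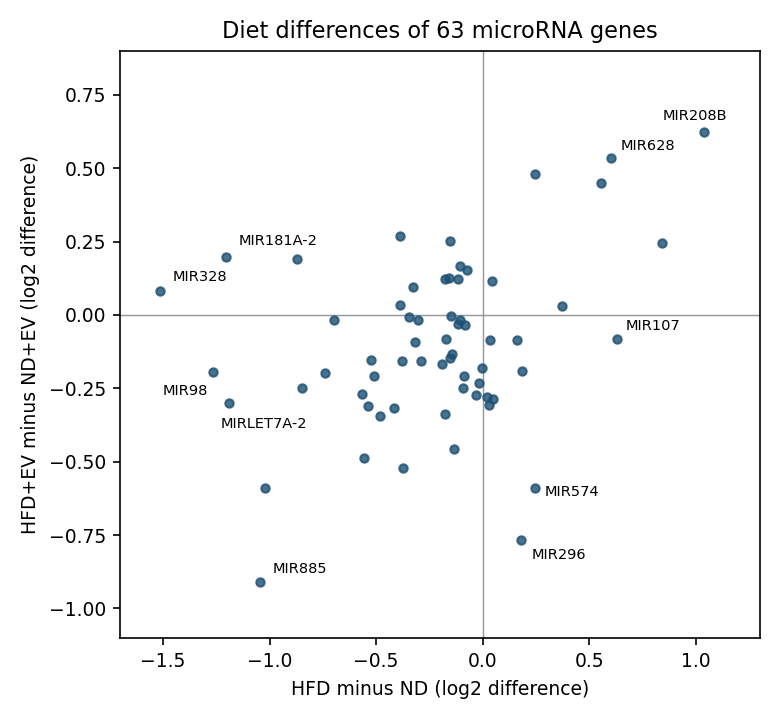
Log2 difference between the diets without EV (x axis, HFD minus ND) and with EV (y axis, HFD+EV minus ND+EV) for the 63 tested microRNA symbols. The lower left holds 35 symbols and the upper right 7; MIR885 is low on both axes and MIR181A-2 on the x axis only.

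Under the normal diet EV gave no call. In ND+EV against ND, 30 members had a higher and 36 a lower mean, with a median log2 difference of -0.033 against -0.005 over all probe sets tested. By limma 0 members passed and 0% of all probe sets, and 3 had an unadjusted p under 0.05, 1 higher and 2 lower (4.55%, background 8.51%). Groups did not overlap for 3 higher members (background 6.32%), which were MIR296, MIR210 and MIR574, and for 1 lower member (background 5.31%), MIR326.

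MIR574 was read at 5.56, 5.68 and 5.62 in ND and at 6.53, 6.81 and 6.13 in ND+EV. The groups were well apart, with a log2 difference of 0.87 (SE 0.23, limma adjusted p = 0.539), and 0.81 without ND replicates 1 and 3. Under the high fat diet it was 5.51 and 6.22 in HFD and 6.24, 5.90 and 5.56 in HFD+EV, which overlapped (0.04). MIR328 had -0.88 (adjusted p = 0.548), and -0.27 without ND replicates 1 and 3, and MIR92B had -0.58 (adjusted p = 0.580) and -0.97 without them. All 6 tested let-7 members had a lower mean in ND+EV, with a median of -0.22, and 4 of 6 without ND replicates 1 and 3.

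Under the high fat diet EV gave no call either. In HFD+EV against HFD, 40 members had a higher and 26 a lower mean, with a median log2 difference of 0.057 against -0.002 over all probe sets tested. Without HFD replicate 1 the median was 0.158, and without HFD replicate 2 it was -0.017. Under quantile scaling 37 members were higher and 29 lower, and under loess 38 and 28. By limma 0 members passed and 0% of all probe sets, and 2 had an unadjusted p under 0.05, both higher (3.03%, background 5.54%). Groups did not overlap for 10 higher members (15.2%, background 12.2%) and for 1 lower member (background 11%), MIR107.

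This comparison shares its 2 HFD arrays with HFD against ND. MIR181A-2 had a log2 difference of 1.07 (SE 0.22, fold 2.09, limma adjusted p = 0.529), with no overlap. MIRLET7A-2 had 0.64 (adjusted p = 0.896), MIR328 0.71 (adjusted p = 0.904) and MIR133B 0.42 (adjusted p = 0.904), each without overlap. All 6 tested let-7 members had a higher mean in HFD+EV, with a median of 0.29, under the deposited, quantile and loess scalings.

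The difference of the EV effects asks whether EV acted differently under the 2 diets. It was positive for 44 and negative for 22 of the 66 members, with a median of 0.096 against 0.001 over all probe sets tested. Under quantile and under loess scaling it was positive for 38 and negative for 28, with medians of 0.051 and 0.047. From a mean signal of 3.63 to 4.42 it was negative for 29.4% of 34 members and 38.7% of all probe sets. The shares were 21.4% and 47.3% from 4.42 to 5.61, and 50.0% and 63.4% above 5.61. By limma 0 members passed and 0% of all probe sets, and 5 had an unadjusted p under 0.05 (7.58%, background 8.42%). These were MIR181A-2 (1.4, adjusted p = 0.572), MIR328 (1.60, adjusted p = 0.572), MIRLET7A-2 (0.89, adjusted p = 0.583), MIR574 (-0.83, adjusted p = 0.582) and MIR296 (-0.95, adjusted p = 0.590). Without ND replicates 1 and 3, MIR328 had 0.98.

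Host genes were compared with the microRNAs in their span. In 21 pairs the microRNA and its host were both tested, and by limma none of their 19 host genes passed in any comparison. An unadjusted p under 0.05 was found for 9 hosts in HFD against ND (background 24%), 4 in HFD+EV against ND+EV (7.36%), 1 in HFD+EV against HFD (5.54%), 0 in ND+EV against ND (8.51%) and 1 for the difference of the EV effects (8.42%). The signs of microRNA and host were equal in 9 of 21 pairs for HFD against ND, in 12 for HFD+EV against ND+EV, in 13 for ND+EV against ND, in 9 for HFD+EV against HFD and in 15 for the difference of the EV effects. COPZ1, a coat protein gene, had 1.01 in HFD against ND (adjusted p = 0.08) while its MIR148B had -0.14. HUWE1, a ubiquitin ligase gene, had 0.42 (adjusted p = 0.14) and its MIR98 -1.27.

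Several other families held few bright members. Of the 10 probe sets of the miR-17/92 cluster and its paralogs, known for growth control, 2 were tested and 1 (MIR92A-2, 4.76) had a mean above the median. Of the miR-30 family 3 of 4 were tested, led by MIR30E at 5.94, and of the miR-29 family, which targets collagens, 1 of 3, MIR29C. No mean above the median was found among the 6 members of the group of MIR15A and MIR195, the 6 of the group of MIR23A and MIR27A, the 4 of the group with MIR214 or the 3 of the DLK1-DIO3 cluster.

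The genes of microRNA processing that were measured, each read by its brightest probe set, had higher signal than most microRNA probe sets. Of 53 symbols listed, which include older names of the same genes, 29 were measured and 25 tested, and 23 lay above the median on all arrays. DROSHA, DGCR8 and DICER1 were among the listed symbols not measured. By limma none passed in any of the 5 comparisons. In HFD against ND 20 had a higher and 5 a lower mean, with a median of 0.13, which became 15 and 10 under quantile scaling and 14 and 11 under loess. In HFD+EV against ND+EV 22 had a higher and 3 a lower mean, and 17 and 8 under either scaling. The lower ones were thus 20% and 12% of the 25 in the deposited values. The list is bright, with a median of means of 5.91. Of all probe sets above 5.61, 30.2% were lower in HFD than in ND and 37.4% in HFD+EV than in ND+EV. An unadjusted p under 0.05 was found for 4 of the 25 (16%) in each of these comparisons, where the background was 24% without EV and 7.36% with EV. It was found for 1 in each of the other 3, with backgrounds of 8.51% for ND+EV against ND, 5.54% for HFD+EV against HFD and 8.42% for the difference of the EV effects.

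HSPA8, a chaperone that helps load Argonaute, was read at 8.26, 8.89 and 8.35 in ND and at 9.32 and 9.36 in HFD. The groups did not overlap (log2 difference 0.84, SE 0.22, limma adjusted p = 0.0760). MOV10, a helicase bound to Argonaute, was 5.16, 5.30 and 5.21 in ND+EV and 5.76, 5.62 and 5.77 in HFD+EV (0.49, SE 0.11, adjusted p = 0.425). ZCCHC6 and ZCCHC11, which add uridines to precursors such as those of let-7, had 0.50 and 0.44 in that comparison (adjusted p = 0.622 for both). AGO2, the Argonaute that can cut its target, had -0.05 in HFD against ND, and XPO5, which is exportin-5, 0.27.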

How the data were processed

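The 11 arrays were hybridised from 50 ng of total RNA each, per the labels' protocols. The authors deposited log2 signal per probe set, already normalized. Transcriptome Analysis Console is named in the submitters' processing notes. Its version and its normalization method were not given in the sources used here, and neither was a genome build. Coordinates are left out for that reason. Members were named from the platform annotation. For host, marker and processing genes with several probe sets, the one with the highest mean signal was used. HSPA8, AGO2, XPO5 and MYH7B had 2 each, and the other probe set is not given. The members, the gene lists and the rule for named genes were chosen with earlier results of these data known. The rule names members past the threshold, the 4 higher and 4 lower members with the smallest p in each of the 5 contrasts, the 10 brightest, those next to the median, and listed families.

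Probe sets in the lowest 25% of mean signal were left out of the tests. The 4 group means were fitted together over the 11 arrays in limma 3.58.1 under R 4.3.3 (lmFit, then eBayes with its defaults; two-sided; 7 residual degrees of freedom) after its steps were tested on simulated data. Other scalings, filters, moderation, array weights and fits without each array were tried. The number of arrays limits the precision. No sequence is printed, and no batch is named in the labels used here.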

Additional observations from a re-analysis of the deposited data

How the results depend on the processing

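Of 40 named differences, none changed sign under any setting that gave a value. No member passed in the other 4 comparisons under any setting run; the difference of the EV effects was not run with only the groups compared, since it needs all 4. Over all probe sets those comparisons gave at most 10 calls, in HFD+EV against ND+EV with array weights. For HFD against ND (1 as reported) the count was 0 with array weights, cyclic loess, quantile normalization, eBayes with trend and robust, no filter on low signal, only the groups compared, and without ND replicates 1 and 3, and 0 to 4 when 1 array was left out. The calls over all probe sets moved from 152 to 0 with no filter, and to 1356 without ND replicate 2 and 722 without HFD+EV replicate 1; the cause was not tested. Replicate numbers were not taken to pair the arrays, because no label ties them and 4 of 15 same-numbered pairs correlated over 0.1 (-0.087 to 0.298). As a weak hint from the data, 13 of the 15 were positive and 7 of 11 arrays were closest to their own number. The correlations are of deviations from group means, so they are not independent, and the HFD arrays mirror each other exactly. With the replicate block 5 members passed in HFD against ND (MIR181A-2, MIR885, MIRLET7A-2, MIR328 and MIRLET7E) and 938 probe sets in all.

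The median over tested members in HFD+EV against HFD was 0.126 with the lowest 50% left out, and -0.017 to 0.158 when 1 array was left out. In HFD against ND it was -0.232 to -0.155 when 1 array was left out. In HFD+EV against ND+EV it was -0.085 with no filter and -0.162 to -0.071 when 1 array was left out. Set against the median of probe sets with 1 symbol, the share of members above it was 19.4% in ND, 18.3% in ND+EV, 15.7% in HFD and 17.5% in HFD+EV. With 1 probe set per symbol it was 22.4%, 20.7%, 18.9% and 20.5%. Low signal limits what the 109 untested members can show.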
